A study of Arabidopsis thaliana with 6 samples.

Results

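Young leaves of ore15-1D, a dominant mutant of Arabidopsis thaliana, were compared with those of its wild type, Col, across the gene families and functions printed on a whole-genome array. The comparison takes both ore15-1D arrays against both Col arrays, which are 4 of the 6 arrays of the series. The other 2 arrays hold the ore15-2 allele. They entered the estimate of the spread between replicates, the filter on background, the choice of probe per locus and quantile normalization. Under the main scaling they did not enter the difference between ore15-1D and Col. All plants grew on soil for 13 days under 16 h of light and 8 h of dark. Leaf 3 or leaf 4 was taken at 4 days of leaf age, 5 h after the lights came on, and the 2 samples of a genotype were independent biological samples. The labels name no further allele or treatment, and nothing says from how many plants the leaves of a sample came. Probes annotated with exactly 1 locus gave 28309 loci, of which 20272 were tested, those whose probe the scanner called well above background on both replicates of Col, ore15-1D or ore15-2. Gene families were formed from the wording of the array's gene descriptions. Of 111 such families, 109 held at least 8 tested loci and are described, with 9159 tested loci between them.

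ORE15 belongs to the PLATZ family of plant-specific zinc-binding proteins, which bind AT-rich DNA. In Arabidopsis leaves it is known as a regulator that extends the proliferation of young leaf cells and delays senescence. The ore15-1D allele was isolated by activation tagging, in which enhancer elements inserted into the genome raise the transcription of a gene nearby. The ORE15 probe (AT1G31040, the array element at chromosome 1, positions 11069800 to 11069859 as the scanner files give them, with no genome build named) checked the labels. Values below are log2 signals relative to the 75th percentile of their own array, so that 0 is the level at the array's upper quartile. ORE15 read 2.75 and 2.66 in ore15-1D against -4.90 and -4.79 in Col, a difference of 7.55 ± 0.67 on the log2 scale (SE, n = 2 per genotype, adjusted p = 0.00545).

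Replicate arrays correlated at 0.987 in Col and 0.995 in ore15-1D, and 67.8% to 71.3% of probes were well above background on the 4 arrays. The slides did not match the genotypes, since slide 1 carried ore15-1D and the first Col replicate and slide 2 the second Col replicate. Values within slide 1 and with the slide as a block therefore stand beside the main families. Slide 2 also carried both ore15-2 arrays, so the 2 Col arrays alone estimated the slide effect. The blocked change is thus that of both ore15-1D arrays against Col replicate 1, as within slide 1, and the 2 readings are not independent. Markers of mesophyll, guard cells, phloem and root moved with the genotype. The carbonic anhydrase CA1 fell by 1.70, and 4 of 5 mesophyll markers passed as lower. All 3 guard cell markers were lower (MYB60 by -1.29, KAT1 by -1.75 and FAMA by -0.83), and so was the phloem sucrose transporter SUC2 (-1.28). Among epidermal markers CER6 was lower (-1.23), while ATML1 and FDH did not pass. Of 4 root markers 3 were lower, PIP2;4 by -0.62, IRT1 and NRT2.1 (listed below as NRT2:1) with no level well above background in ore15-1D, and RHD6 did not pass. The meristem markers STM, WUS and CLV3 and the floral markers AP3 and AG were not well above background on any of the 4 arrays, whereas the floral marker PI was on all 4 and did not pass (-0.22). The seed markers SESA3 and OLEO1 were well above background on 1 Col array alone, and CRA1, on all 4, did not pass and read -5.94 in Col replicate 1 and -4.29 in replicate 2. In whole leaves, fewer cells of a type and less RNA per cell cannot be told apart, and the part of these markers in the family results was not tested.

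Of the tested loci, 40.7% passed an adjusted p of 0.05 (limma, Benjamini-Hochberg over all tested loci), 18.6% as higher in ore15-1D and 22.1% as lower. At a change of at least 1 on the log2 scale the shares were 2.68% higher and 9.38% lower. These shares are the background against which the counts of members below are read. With the slide as a block the shares were 7.82% higher and 11.3% lower, and under quantile normalization 23.1% higher and 18.2% lower. Genes named below were taken mostly from those whose arrays did not overlap between the genotypes, so the absence of overlap reflects the choice. Within the described families 1500 loci passed as higher and 2170 as lower. More members were higher than lower in 24 families and more were lower in 84. Families were also grouped by role, with earlier results of these data known, and the tallies by role depend on that grouping. The gene expression machinery here includes broad protein classes, namely WD40 repeat, ARM repeat and P-loop proteins and SAM-dependent methyltransferases. The last of these were near the background, with 20.4% higher and 16.8% lower. All 13 families of the gene expression machinery and 3 of 4 of cells and chromatin had more members higher. More were lower in 14 of 15 transcription factor families, in all 12 of signalling, 11 of the cell wall and 10 of stress and defence, in 16 of 17 of metabolism and in 8 of 9 of transport. Families of protein fate were split, with 5 having more members higher and 8 more lower. These tallies were made under the main scaling, where the background itself leaned lower, so a family near the background also counted as more lower. Under quantile normalization, where the background leaned higher, some families turned. Among them bZIP factors had 10 members higher and 8 lower, and lectin receptor kinases 9 and 6. Family medians were above 0 in 26 families and below 0 in 83. Calls rested on both mutant arrays: without ore15-1D replicate 1 the loci that passed numbered 843, and without replicate 2 they numbered 1086, against 8244 with both. A model-based background correction (normexp), run on the median spot and background signals in place of the processed signal and with the same scaling, left 0 loci past the adjusted threshold (2242 at an unadjusted p under 0.05), whereas quantile normalization left 8371. Of 156 genes named by locus below, 21 changed sign under normexp with this scaling, all but 1 of them genes that had risen. Another 133 kept their sign there but no longer passed. With the slide as a block 42 of the 156 genes kept their sign but no longer passed.

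**Figure D1:**
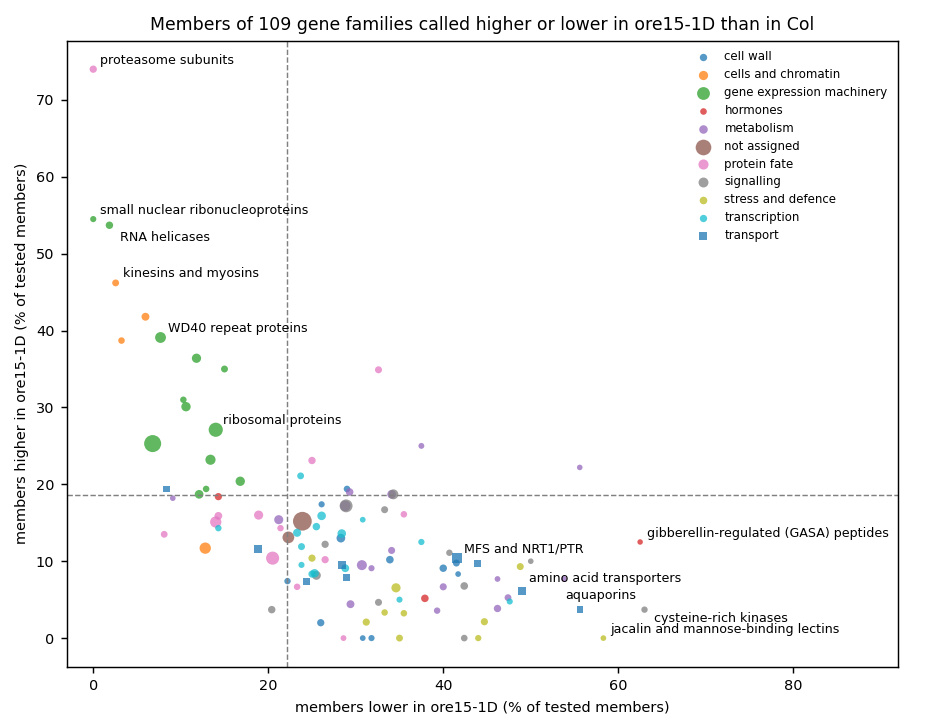
Percentage of tested members called lower in ore15-1D (horizontal) against the percentage called higher (vertical) for each described family, coloured by role, with larger points for larger families. Dashed lines mark the shares over all tested loci, 22.1% lower and 18.6% higher; proteasome subunits sit at the upper left, with 37 of 50 members higher and 0 lower, and cysteine-rich receptor-like kinases at the lower right, with 17 of 27 lower.

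The proteasome, the protease complex that degrades ubiquitin-tagged proteins, was the family with the largest share of members higher. Of 50 tested subunits and related proteins, 37 rose and 0 fell, with a median change of 0.43. All member changes lay between -0.01 and 0.77, so the family moved by a small and even amount. The beta subunit PBD2 (AT4G14800), part of the 20S core that holds the proteolytic sites, read 3.39 and 3.45 in ore15-1D and 2.67 and 2.62 in Col, a rise of 0.77 ± 0.09 (adjusted p = 0.00705). Both mutant arrays lay above both Col arrays for this subunit, with little spread within a genotype. The ATPase RPT5A (AT3G05530), one of the ring of ATPases that unfold substrates, read 3.67 and 3.70 against 3.04 and 3.03 and rose by 0.64 ± 0.07. RPN1A (AT2G20580), a scaffold of the regulatory particle, read 2.83 and 2.93 against 2.40 and 2.01 and rose by 0.67 ± 0.15. Its Col arrays differed more from each other than its mutant arrays did. By subcomplex, grouped after the values were seen, 13 of 18 core subunits and 16 of 18 regulatory subunits rose, with medians of 0.47 and 0.41. All 5 subunits of the related COP9 signalosome, which removes the NEDD8 modifier from cullin ligases, rose as well, FUS6 (AT3G61140) from 1.04 and 0.98 to 1.63 and 1.70. At the other end RPN12b (AT5G42040), the dimmest member, read -3.83 and -3.52 against -3.67 and -3.68 and the groups overlapped. With the slide as a block 20 members passed as higher, and within slide 1 the median change was 0.44. Leaving out single arrays of either genotype left 0 to 26 members past the threshold, with 0 without either ore15-1D array.

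**Figure D2:**
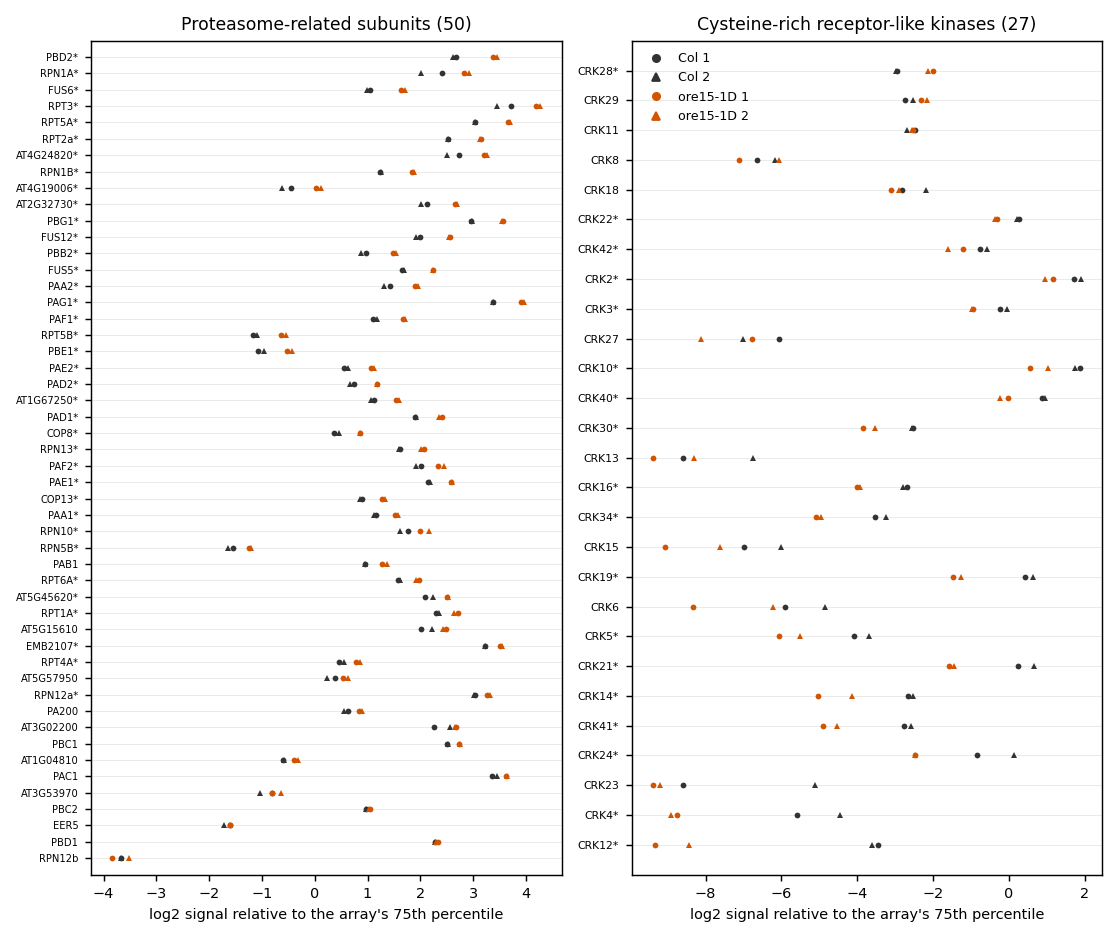
Levels on each of the 4 arrays (log2 signal relative to the array's 75th percentile) for the 50 proteasome-related subunits and the 27 cysteine-rich receptor-like kinases, ordered by their change. Black symbols are Col and orange symbols ore15-1D; circles are replicate 1, triangles replicate 2 and an asterisk marks members that passed. Orange lies to the right of black for most proteasome subunits by less than 1 log2 unit and to the left for most kinases by up to several log2 units.

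Other families of transcript handling moved the same way. RNA helicases, ATP-driven enzymes that unwind RNA during splicing, ribosome assembly and decay, had 29 of 54 members higher and 1 lower, with a median of 0.47 (22 higher with the slide as a block, 0.50 within slide 1). FANCM (AT1G35530), a helicase of DNA crosslink repair and meiosis whose description places it among the RNA helicases, read -1.40 and -1.37 against -2.59 and -2.64 and rose by 1.23 ± 0.19. ABO6 (AT5G04895) read -1.10 and -1.18 against -2.27 and -2.13 and rose by 1.06 ± 0.10. The single member that fell, AT3G06980, moved by -0.34 ± 0.08. Small nuclear ribonucleoproteins, the core of the spliceosome, had 12 of 22 members higher and 0 lower, with a median of 0.35, but 2 passed with the slide as a block. SAD1 (AT5G48870), an Sm-like splicing protein, read 2.64 and 2.65 against 1.94 and 1.93 and rose by 0.71 ± 0.12. Proteins with RNA recognition motifs were more mixed, with 34 of 113 higher and 12 lower and a median of 0.20.

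Proteins with WD40 repeats, a propeller fold that serves as a platform for other proteins, had 66 of 169 members higher and 13 lower, with a median of 0.33 (36 and 6 with the slide as a block). The largest rises in this family belonged to chromatin and cell division proteins. MSI3 (AT4G35050), a histone-binding protein, read -1.20 and -1.11 against -2.68 and -2.70 and rose by 1.54 ± 0.25. APC4 (AT4G21530), a subunit of the anaphase-promoting complex, read -3.52 and -3.44 against -4.91 and -4.93 and rose by 1.44 ± 0.10. The spindle checkpoint protein BUB3.2 (AT1G49910) rose by 1.36 ± 0.27. ARM repeat proteins had 40 of 110 members higher and 13 lower, and P-loop nucleoside triphosphate hydrolases 33 of 142 higher and 19 lower.

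Ribosomal proteins were divided by encoding genome and by the wording of the description, after the values were seen. Those encoded in the chloroplast parted from most others. The family as a whole had 87 of 321 members higher and 45 lower, with a median of 0.23. Of the 14 tested ribosomal proteins encoded in the chloroplast, 0 rose and 12 fell, with a median of -0.52. Another 6 are nuclear genes described as plastid or chloroplast ribosomal proteins, and 5 of these fell. Under quantile normalization 1 of the 6 was lower and 1 higher, with a median of -0.14, and with the slide as a block 1 was lower and 1 higher. The remaining 301, a remainder not sorted further by compartment, had 87 members higher and 28 lower, with a median of 0.24. Chloroplast S14 (ATCG00330) illustrates the first class, with 1.07 and 0.91 in ore15-1D against 2.08 and 2.08 in Col, a fall of 1.09 on the log2 scale. The largest rise was that of AT3G28500, described as a 60S acidic ribosomal protein, which read 0.75 and 0.79 against -1.64 and -1.74 and rose by 2.46 ± 0.13. These transcripts are among the brightest on the array, where scaling matters. Under quantile normalization the median of the 301 was 0.45 with 178 higher, and that of the 14 chloroplast-encoded ones was -0.27 with 5 lower. All 56 tested genes of the chloroplast genome had 0 members higher and 49 lower, with a median of -0.75 (29 lower with the slide as a block, and 32 lower with a median of -0.39 under quantile normalization). In the mitochondrial genome 10 of 45 tested genes were higher and 3 lower, with a median of 0.14.

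Pentatricopeptide and TPR-like repeat proteins, many of which process organelle transcripts, formed the largest family after the unknown proteins, with 123 of 486 members higher and 33 lower. Their median of 0.24 (0.28 within slide 1) was positive under 4 scalings and negative under the background model with 75th percentile scaling. In that setting it lay at -0.24 relative to all loci. Aminoacyl-tRNA synthetases, which charge tRNAs, had 14 of 40 members higher and 6 lower. The members that fell included NS2 (AT3G07420), an asparaginyl-tRNA synthetase, at -1.09 ± 0.15, and EMB2761 (AT2G04842), a threonyl-tRNA synthetase, at -0.49 ± 0.09. Translation initiation and elongation factors had 17 of 91 higher, at 18.7% close to the background, and 11 lower, at 12.1% below it. Under quantile normalization 29 were higher and 8 lower.

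HSP20, HSP70 and HSP90 chaperones together had 12 of 52 members higher (23.1%) and 13 lower (25%), both near the background. They were divided after the values were seen. Of 13 tested HSP70 chaperones 5 rose and 1 fell, with a median of 0.38, including the mitochondrial mtHsc70-1 (AT4G37910) by 0.67 ± 0.10. The endoplasmic reticulum chaperone BIP2 (AT5G42020) read 3.08 and 3.18 against 2.56 and 2.56 and rose by 0.57 ± 0.09; the sequence-related BIP1 could share its signal, which was not tested. Small HSP20-like chaperones had 3 of 28 members higher and 11 lower. AT2G29500, one of these, fell by 1.85 on the log2 scale. FKBP and cyclophilin isomerases, which catalyse proline isomerization during folding, split into 15 higher and 14 lower of 43. The FKBP ROF1 (AT3G25230) rose by 0.70 ± 0.09, and AT5G13410, another FKBP-like isomerase, read 0.99 and 0.96 against 2.08 and 1.99 and fell by 1.06 on the log2 scale.

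Chromatin remodelling and histone modification genes had 28 of 67 members higher and 4 lower, with a median of 0.35 (16 and 1 with the slide as a block, 0.35 within slide 1). CHR1 (AT5G66750, known as DDM1), a remodeller that maintains DNA methylation and the silencing of transposons, read -1.84 and -1.75 against -3.05 and -2.95 and rose by 1.20 ± 0.15. CHR24 (AT5G63950), another SNF2-type remodeller, read 0.30 and 0.37 against -0.83 and -1.11 and rose by 1.30 ± 0.20. SDG37 (AT2G17900), a SET domain protein, rose by 1.31 ± 0.14. The jumonji-type demethylase JMJ18 (AT1G30810) ran the other way, at -2.67 and -2.54 against -1.81 and -1.80, and fell by 0.80 on the log2 scale.

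Kinesins and myosins, the motors of microtubules and actin filaments, had 18 of 39 members higher and 1 lower, with a median of 0.53 (0.47 within slide 1); 5 passed with the slide as a block. Kinesins contributed 10 of 22 and myosins 8 of 17. PAKRP1 (AT4G14150), a kinesin of the phragmoplast that builds the new wall in dividing cells, read 0.66 and 0.63 against -0.30 and -0.63 and rose by 1.11 ± 0.25. POK1 (AT3G17360), a kinesin that guides the division plane, read -1.10 and -1.11 against -1.97 and -2.23 (1.00 ± 0.25). Among myosins XI-I (AT4G33200), which anchors the nuclear envelope to actin, rose by 1.09 ± 0.12. Tubulins and actins had 12 of 31 members higher and 1 lower, with a median of 0.18, but with the slide as a block 2 passed as higher, a share under the 7.82% over all loci. Gamma-tubulin TUBG1 (AT3G61650), which nucleates microtubules, read -2.52 and -2.44 against -3.37 and -3.64 and rose by 1.03 ± 0.12, and TUB7 (AT2G29550) rose by 1.00 ± 0.15.

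**Figure D3:**
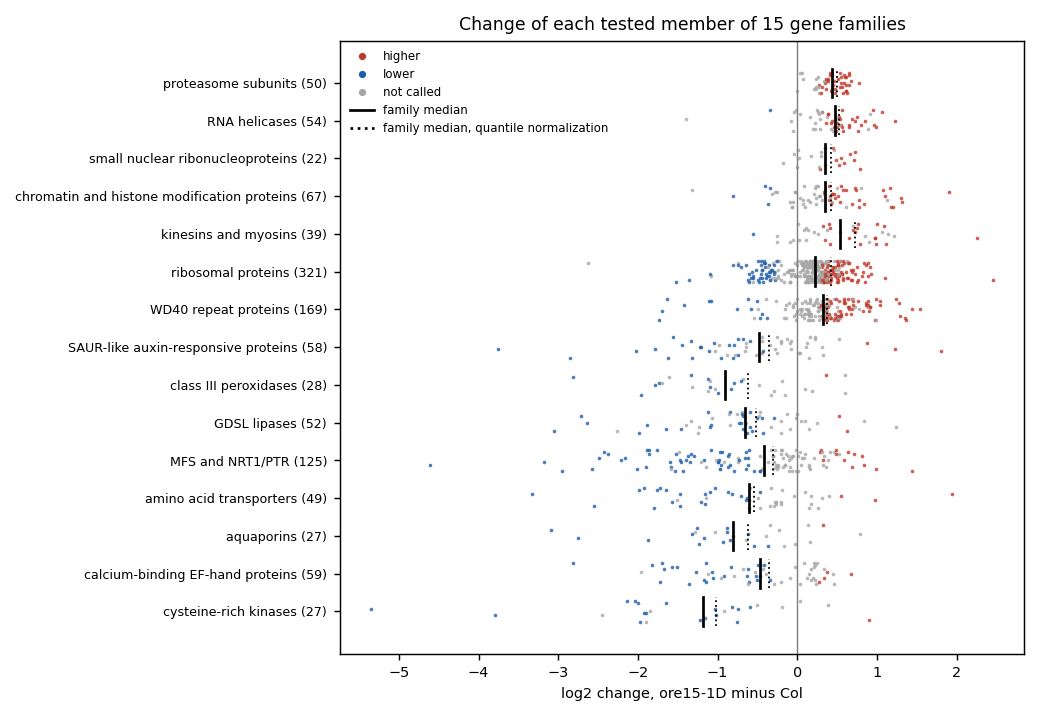
Log2 change (ore15-1D minus Col) of each tested member of 15 families, with the number of members in brackets; red points passed as higher, blue as lower and grey points did not pass. Solid bars are family medians under the 75th percentile scaling and dotted bars under quantile normalization: proteasome subunits cluster near 0.43, and cysteine-rich receptor-like kinases spread around a median of -1.18.

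Cysteine-rich receptor-like kinases (CRKs), membrane kinases whose outer part carries cysteine motifs and which are known for responses to pathogens and oxidative stress, had 1 of 27 members higher and 17 lower. The median change was -1.18 (-1.02 under quantile normalization, -1.16 within slide 1), and 12 passed as lower with the slide as a block. In a tandem array on chromosome 4, from AT4G23130 to AT4G23320, 9 of 16 tested members fell and 0 rose, with a median of -1.87. The 11 members elsewhere had a median of -0.92, with 8 lower and 1 higher. CRK12 (AT4G23200), inside the array, read -3.46 and -3.60 in Col and was not well above background on either mutant array, so it was at least 10.8-fold lower. CRK19 (AT4G23270) read -1.48 and -1.26 against 0.42 and 0.64 and fell by 1.89 on the log2 scale. CRK24 (AT4G23320) read -2.49 and -2.46 against -0.83 and 0.15 and fell by 2.13, with Col replicate 2 well above replicate 1. CRK10 (AT4G23180), the brightest of the array, read 0.55 and 1.04 against 1.88 and 1.75 and fell by 1.02 on the log2 scale. Outside the array CRK4 (AT3G45860) was at least 3.81-fold lower, and CRK28 (AT4G21400) was the single member to rise, from -2.95 and -2.97 to -1.99 and -2.12 (0.90 ± 0.11). The array members are related in sequence, and cross-hybridization between them was not tested. Leaving out single arrays left 4 to 15 members lower.

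Leucine-rich repeat receptor kinases, which include receptors of hormones, peptides and microbial patterns, had 25 of 134 members higher and 46 lower, with a median of -0.26. ERECTA (ER, AT2G26330), a receptor known for organ growth and stomatal spacing, read 4.06 and 4.07 against 3.16 and 2.86 and rose by 1.06 ± 0.16. AT4G37250 read -2.41 and -2.76 against -0.21 and -0.07 and fell by 2.45 on the log2 scale. Lectin receptor kinases had 6 of 49 members higher and 13 lower, the latter at 26.5% against 22.1% over all loci. Under quantile normalization the balance turned, with 9 higher and 6 lower. AT5G60270 read -5.68 and -6.44 against -2.40 and -2.51 and fell by 3.61 on the log2 scale. Of 10 wall-associated kinases, which bind pectin, 5 fell, WAK1 (AT1G21250) by 1.29, and 1 rose, WAKL7 (AT1G16090) by 1.11 ± 0.23. None of these 10 passed with the slide as a block in either direction. Receptor-like proteins, which have the outer repeats but no kinase, had 0 of 33 higher and 14 lower, with a median of -0.68 that was -0.28 under quantile normalization.

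NBS-LRR receptors, the intracellular sensors of pathogen effectors, had 8 of 98 members higher and 25 lower, with a median of -0.25. The lower share of 25.5% was near the background, and with the slide as a block 7 passed as lower, a share under the 11.3% over all loci. The neighbours AT5G41740 and AT5G41750 both fell, the latter from -2.76 and -2.30 to -5.72 and -4.59. RPP1 (AT3G44480), a downy mildew resistance gene, rose by 0.54 ± 0.14. Calcium-binding EF-hand and calmodulin-like proteins had 4 of 59 members higher and 25 lower, with a median of -0.47 (11 lower with the slide as a block). The calcium sensor SOS3 (AT5G24270), known for salt tolerance, read -5.13 and -5.02 against -3.20 and -3.30 and fell by 1.82 on the log2 scale. CML38 (AT1G76650), a calmodulin-like protein, fell by 1.69, but its mutant arrays, at -0.81 and 0.37, lay far apart. Canonical calmodulins were among the members that rose, CAM7 (AT3G43810) by 0.33 ± 0.08 and CAM6 (AT5G21274) by 0.38 ± 0.07. In the MAP kinase cascade 2 of 43 members rose and 14 fell. The falls were largest among the kinases at the top of the cascade, MAPKKK13 (AT1G07150) by 1.96 and MAPKKK15 (AT5G55090) by 1.42, while MKK5 (AT3G21220) rose by 0.39 ± 0.11. Protein phosphatases 2C, which include negative regulators of abscisic acid signalling, had 2 of 54 higher and 11 lower, the latter at 20.4% close to the background.

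SAUR genes, short early auxin-response genes whose proteins promote cell expansion, had 3 of 58 members higher and 22 lower, with a median of -0.49 (-0.36 under quantile normalization, 10 lower with the slide as a block). AT3G60690 read -1.98 and -1.81 against -0.28 and -0.26 and fell by 1.63 on the log2 scale. AT3G53250 was not well above background in ore15-1D and was at least 4.27-fold lower, while AT4G34800 rose by 1.23 ± 0.22. Auxin response factors, the transcription factors of the pathway, leaned the other way, with 4 of 13 higher and 0 lower. ARF8 (AT5G37020) read 0.31 and 0.31 against -0.77 and -1.08 (1.24 ± 0.12), and its close relative ARF6 (AT1G30330) rose by 0.99 ± 0.10. Aux/IAA repressors had 4 of 24 higher and 5 lower. Among auxin synthesis genes YUC1 (AT4G32540), which was not well above background in Col, was at least 4.38-fold higher, and YUC5 (AT5G43890) fell by 1.29. GASA genes, which encode small gibberellin-regulated peptides, had 1 of 8 higher and 5 lower, with a median of -0.90. GASA6 (AT1G74670) read 1.39 and 1.25 against 4.11 and 4.26 and fell by 2.86 on the log2 scale. GASA1 (AT1G75750) read -2.58 and -2.89 against 0.84 and 2.30 and fell by 4.31, with the Col arrays far apart.

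Carriers of the major facilitator and NRT1/PTR families, which move nitrate, peptides and sugars, had 13 of 125 members higher and 52 lower, with a median of -0.42 (35 lower with the slide as a block, -0.40 within slide 1). Of 8 members described as nitrate transporters, a subgroup read out after the values were seen, 7 fell and 0 rose, with a median of -1.66. The dual-affinity transporter and nitrate sensor NRT1.1 (AT1G12110), the brightest, read 0.82 and 0.79 against 2.34 and 2.21 and fell by 1.47 on the log2 scale. NRT1.7 (AT1G69870), known to reload nitrate from older leaves into the phloem, read -2.23 and -2.19 against -0.42 and -0.28 and fell by 1.86. NRT2.3 (AT5G60780), of the high-affinity family, read -5.60 and -5.48 against -3.12 and -2.83 and fell by 2.57. The high-affinity NRT2:1 (AT1G08090) read -2.94 and -3.07 in Col and was not well above background in ore15-1D, so it was at least 15.5-fold lower. NRT1.6 (AT1G27080), the member that did not pass, read -6.26 and -6.97 against -5.98 and -5.76.

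Sugar exporters of the MtN3 (SWEET) type had 0 of 9 members higher and 7 lower, with a median of -1.16. SWEET11 (AT3G48740), which releases sucrose for phloem loading, read -1.51 and -1.50 against 1.19 and 2.14 and fell by 3.17 on the log2 scale. Its partner SWEET12 (AT5G23660), whose description falls outside the family's wording and outside the count, read -4.67 and -4.24 against -1.53 and -0.84 and fell by 3.27. SWEET13 (AT5G50800) read -5.81 and -5.94 against -2.71 and -2.70 and fell by 3.17. These 3 sucrose exporters lay more than 2 log2 units apart between genotypes on every pair of arrays. SWEET4 (AT3G28007), SWEET1 (AT1G21460) and SWEET2 (AT3G14770), which carry hexoses or glucose, fell by 1.60, 1.16 and 1.12. The sucrose carrier SUC5 (AT1G71890), a proton-coupled importer, was at least 6.09-fold lower. Of 32 MtN21 (UMAMIT) transporters, 4 rose and 11 fell, among them the neighbours UMAMIT20 (AT4G08290), at least 4.62-fold lower, and UMAMIT17 (AT4G08300), at least 3.69-fold lower.

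**Figure D4:**
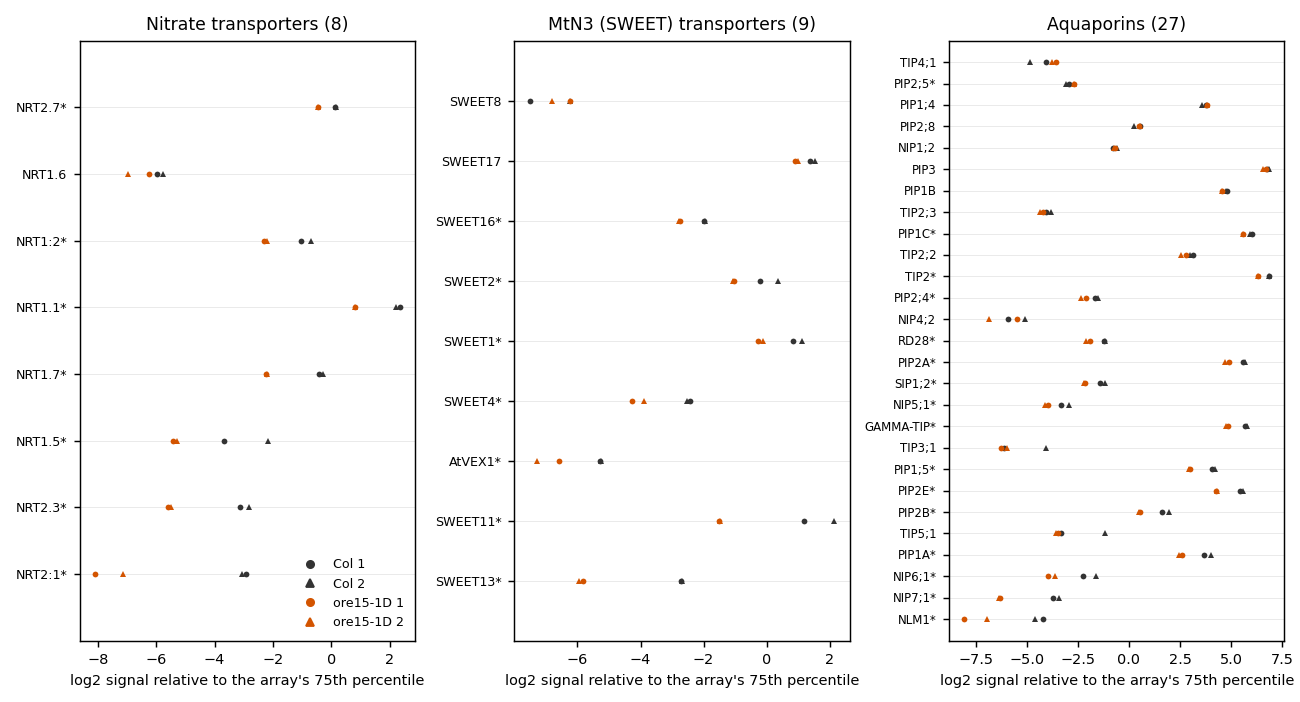
Levels on each of the 4 arrays (log2 signal relative to the array's 75th percentile) for 8 nitrate transporters, 9 MtN3 (SWEET) transporters and 27 aquaporins. Black symbols are Col, orange symbols ore15-1D, circles replicate 1, triangles replicate 2, and an asterisk marks members that passed. Orange lies to the left of black for 7 of the nitrate transporters and 7 of the SWEET transporters that passed, while the brightest aquaporins move less than the NOD26-like ones at the bottom.

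Amino acid transporters had 3 of 49 members higher and 24 lower, with a median of -0.60 (-0.54 under quantile normalization, 17 lower with the slide as a block). LHT1 (AT5G40780), which imports amino acids into mesophyll cells, read -2.56 and -2.27 against -0.63 and -0.59 and fell by 1.80 on the log2 scale, and LHT2 (AT1G24400) fell by 0.71. AT2G42005 was the largest exception, reading -2.13 and -2.26 against -3.95 and -4.33 (1.94 ± 0.27). Aquaporins, the water channels, had 1 of 27 members higher and 15 lower, with a median of -0.81 (-0.55 within slide 1, 6 lower with the slide as a block). Of 13 plasma membrane aquaporins 8 fell and 1 rose. PIP2A (AT3G53420), one of the brightest, read 4.88 and 4.70 against 5.56 and 5.69 and fell by 0.84 on the log2 scale, and PIP1A (AT3G61430) fell by 1.32. Of 6 NOD26-like aquaporins, which also carry boric acid and other small solutes, 4 fell. NIP6;1 (AT1G80760), a boric acid channel of young shoot tissue, read -3.96 and -3.63 against -2.26 and -1.59 and fell by 1.87, and NIP7;1 (AT3G06100) fell by 2.76. The member that rose, PIP2;5 (AT3G54820), moved by 0.32 ± 0.09. Leaving out single arrays left 8 to 21 amino acid transporters and 1 to 15 aquaporins lower.

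Metal transport and metal-binding proteins had 7 of 74 members higher and 21 lower, and cation and proton exchangers 3 of 38 higher and 11 lower. The sodium transporter HKT1 (AT4G10310), which retrieves sodium from the xylem, read -4.69 and -4.77 in Col and was at least 4.69-fold lower. YSL3 (AT5G53550), a carrier of metal-nicotianamine complexes, read -1.08 and -1.59 against 0.14 and 0.35 and fell by 1.58 on the log2 scale. MATE efflux proteins had 3 of 41 higher and 10 lower, the largest fall in AT5G52050 (-2.96 ± 0.48). The lower share of MATE proteins, 24.4%, was near the background, but 8 fell by at least 1, a share above the 9.38% over all loci. With the slide as a block 9 were lower, a share above the 11.3% over all loci. ABC transporters had no clear direction, with 8 of 69 higher and 13 lower (18.8%). Mitochondrial substrate carriers had 7 of 36 higher and 3 lower, with a median of 0.08. ABCG13 (AT1G51460), which exports cutin precursors for the petal cuticle, read -1.14 and -1.26 against -3.24 and -3.90 and rose by 2.37 ± 0.33.

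Cytochromes P450 had 13 of 137 members higher and 42 lower. Their median of -0.43 was -0.17 under quantile normalization and -0.29 with 17 members set to their bounds. CYP89A9 (AT3G03470), which acts in chlorophyll catabolism, rose against the family, from -2.07 and -2.21 to 0.18 and 0.13 (2.30 ± 0.21), and AT3G44970 was at least 6.8-fold lower. Glutathione S-transferases, which conjugate glutathione to reactive compounds, had 3 of 45 higher and 18 lower, with a median of -0.58. GSTF6 (AT1G02930) read -2.28 and -1.79 against -0.20 and 0.08 and fell by 1.97 on the log2 scale, and GSTF12 (AT5G17220, known as TT19), needed for anthocyanin transport into the vacuole, fell by 2.33. UDP-glycosyltransferases, which attach sugars to small molecules, were near the background for higher calls with 17 of 91, and 31 fell. UGT74F2 (AT2G43820), which glucosylates salicylic acid, read -1.42 and -1.48 against 0.07 and 0.85 and fell by 1.91. Class III peroxidases, secreted enzymes of wall crosslinking, had 1 of 28 higher and 11 lower, with a median of -0.91 (-0.62 under quantile normalization). The neighbours AT4G37520 and AT4G37530 fell by 2.81 and 1.79, the former well above background on 1 of 2 mutant arrays.

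HXXXD-type acyltransferases had 2 of 38 members higher and 18 lower, and O-methyltransferases 1 of 13 higher and 6 lower, with medians of -0.57 and -1.29. The neighbours IGMT2 (AT1G21120) and IGMT3 (AT1G21110), indole glucosinolate methyltransferases, fell by 1.82 and 1.71. FAD-binding berberine family proteins had 1 of 13 higher and 7 lower; AT4G20860 read -5.89 and -5.82 against -2.24 and -1.79 and fell by 3.84 on the log2 scale. Flavin-binding monooxygenases moved both ways, with 4 of 16 higher and 6 lower, and AT1G12200 was at least 5.48-fold lower. In starch and trehalose metabolism the beta-amylase BAM5 (AT4G15210), a cytosolic form, read -1.56 and -2.29 against -4.61 and -3.94 and rose by 2.35 ± 0.41. The chloroplast beta-amylase CT-BMY (AT4G17090), which degrades starch at night, read 1.38 and 1.56 against 2.48 and 2.68 and fell by 1.11 on the log2 scale. The trehalose phosphate family had 2 of 9 higher and 5 lower, but with the slide as a block 0 were higher and 1 lower. The 1 member that fell by at least 1 was TPPB (AT1G78090), by 2.09 with 1 of 2 mutant arrays well above background.

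Lipid and surface families had more members lower than higher as well. GDSL lipases, secreted esterases that include cutin-forming enzymes, had 2 of 52 members higher and 24 lower, with a median of -0.66 (14 lower with the slide as a block, -0.53 within slide 1). AT1G28660 read -4.22 and -4.02 against -0.88 and -1.26 and fell by 3.05 on the log2 scale. Lipid transfer proteins, small secreted carriers, had 3 of 68 higher and 20 lower. With the slide as a block 9 of these 68 were lower, near the 11.3% over all loci. At a fall of at least 1 they numbered 8, near the 9.38% over all loci. The family median of -0.75 was -0.37 under quantile normalization, and 10 members were not well above background in the dimmer genotype. XYP1 (AT5G64080), a xylogen-type arabinogalactan protein that promotes vascular differentiation, was among those that rose, from 2.13 and 2.22 to 3.50 and 3.57 (1.37 ± 0.15). DIR1 (AT5G48485), a lipid transfer protein of systemic acquired resistance, rose by 0.75 ± 0.15. AT1G62510 read -2.12 and -2.31 against -0.20 and 0.48 and fell by 2.36 on the log2 scale.

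In the cell wall, pectin lyase-like proteins had 5 of 55 members higher and 22 lower. Pectin methylesterases with their inhibitors had 1 of 50 higher and 13 lower, the latter at 26% near the background of 22.1%. With the slide as a block 6 of these 50 were lower, close to the 11.3% over all loci. Their median of -0.37 was -0.18 under quantile normalization. Arabinogalactan and fasciclin-like proteins, heavily glycosylated surface proteins, had 4 of 41 higher and 17 lower. AGP41 (AT5G24105) read -2.21 and -2.32 against 1.32 and 1.18 and fell by 3.52 on the log2 scale. AGP12 (AT3G13520), one of the brightest of the family, read 4.89 and 4.50 against 6.08 and 6.39 and fell by 1.54. Glycine-rich proteins had 1 of 47 higher and 21 lower, with a median of -0.67. GRP5 (AT3G20470) was the one that rose, from 0.93 and 1.26 to 2.70 and 2.54 (1.53 ± 0.23), while AT5G61660 read -0.73 and -0.05 against 2.26 and 2.74 and fell by 2.89. Proline-rich and extensin-like proteins had 6 of 59 higher and 20 lower. Cellulose synthases and their relatives were mixed, with 6 of 31 higher and 9 lower: CSLA02 (AT5G22740), of the glucomannan synthase branch, rose by 1.19 ± 0.13, and CSLC04 (AT3G28180), a xyloglucan glucan synthase, fell by 1.36. Laccases had 1 of 12 higher and 5 lower, among them IRX12 (AT2G38080), which polymerizes lignin in vascular tissue, at -0.97 ± 0.13.

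Pathogenesis-related, chitinase and thaumatin proteins had 4 of 43 members higher and 21 lower, with a median of -0.56. Of 15 members described as chitinases, 10 were lower and 0 higher. The chitin-binding PR4 (AT3G04720) read -4.95 and -4.91 against -1.59 and -1.96 and fell by 3.16 on the log2 scale. The chitinase AT1G02360 read -6.50 and -5.42 against -1.74 and -2.21 and fell by 3.99, and the neighbours ChiC (AT4G19810) and AT4G19820 fell by 2.75 and 2.42. The thaumatin-like AT4G38660 rose by 0.89 ± 0.14. Defensin-like and thionin proteins, small secreted cysteine-rich peptides, had 48 of 251 array members tested, 1 higher and 15 lower. Their median of -0.78 was -0.41 under quantile normalization, and 13 members had only a bound. Germin-like proteins had 0 of 25 higher and 11 lower, jacalin and mannose-binding lectins 0 of 12 and 7, and C1 domain proteins 0 of 40 and 14.

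Thioredoxins and glutaredoxins, which set the redox state of protein thiols, had 7 of 107 members higher and 37 lower. Their median of -0.31 changed sign under the background model with 75th percentile scaling, where it lay at 0.05 relative to all loci. AT2G47880, a glutaredoxin, read -0.76 and -0.04 against 2.17 and 2.25 and fell by 2.61 on the log2 scale. GRX480 (AT1G28480), a glutaredoxin of salicylic acid and jasmonate crosstalk, fell by 2.43, with mutant arrays at -6.29 and -4.67. The peroxiredoxin TPX1 (AT1G65980) rose by 0.69 ± 0.13. In autophagy, the bulk recycling of cell contents, 0 of 14 members rose and 4 fell, close to the background share. ATG8E (AT2G45170), one of the proteins that coat the autophagosome, read 1.47 and 1.36 against 2.47 and 2.43 and fell by 1.04 on the log2 scale.

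Transcription factor families held large changes in both directions beside medians near or below 0. MADS-box factors had 5 of 42 members higher and 10 lower; their median of -0.27 was 0.0023 relative to all loci in the authors' deposited table, so the family as a whole had no stable direction. AGL8 (AT5G60910, known as FRUITFULL), which promotes flowering and phase change in Arabidopsis, read 0.18 and 0.28 against -2.17 and -2.28 and rose by 2.46 ± 0.12. AGL20 (AT2G45660, known as SOC1), a flowering integrator, read 2.77 and 2.70 against 2.21 and 1.95 and rose by 0.65 ± 0.13, and SEP3 (AT1G24260) rose by 1.01 ± 0.23. Of the 6 floral repressors of the FLC clade, 2 fell and 0 rose. FLC (AT5G10140) read -4.32 and -4.45 against -1.89 and -2.98 and fell by 1.95 on the log2 scale, and MAF5 (AT5G65080) read -6.31 and -5.19 against -2.17 and -2.26 and fell by 3.54. The other members did not pass, with changes of 0.27 for MAF1, 0.55 for AGL31, 0.27 for MAF3 and -0.54 for MAF4. SMZ (AT3G54990), an AP2-type repressor of flowering, read -5.11 and -4.89 against -2.66 and -2.53 and fell by 2.40.

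In the bHLH, bZIP and GATA families the largest rises included HFR1, HY5 and GATA2. HFR1 (AT1G02340), a bHLH factor that limits shade responses, read -2.08 and -1.90 against -4.02 and -4.39 and rose by 2.21 ± 0.16. HY5 (AT5G11260), a bZIP factor that promotes photomorphogenesis, read -0.47 and -0.46 against -1.52 and -1.81 and rose by 1.20 ± 0.12. GATA2 (AT2G45050), which links light and brassinosteroid responses, read -0.68 and -0.81 against -2.21 and -2.56 and rose by 1.64 ± 0.16. Their families did not move with them: bHLH factors had 12 of 88 higher and 25 lower, bZIP factors 8 of 38 higher and 9 lower, and GATA factors 4 of 28 higher and 4 lower. PAN (AT1G68640), a bZIP factor of floral organ number, rose by 2.71 ± 0.47, with Col arrays at -4.50 and -5.74. The bHLH factor AT5G10570 read -2.84 and -2.84 in Col and was at least 17.3-fold lower in ore15-1D. B-box proteins had 3 of 24 higher and 9 lower, BBX17 (AT1G49130) and BBX16 (AT1G73870) falling by 1.39 and 1.34.

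WRKY factors, known for defence and senescence, had 4 of 48 members higher and 12 lower, with a median of -0.56. The lower share of 25% was near the background, but 10 members fell by at least 1, a share above the 9.38% over all loci. With the slide as a block 2 were higher and 11 lower, the latter a share above the 11.3% over all loci. WRKY47 (AT4G01720) read -4.57 and -4.55 against -2.56 and -2.56 and fell by 2.00 on the log2 scale, and WRKY22 (AT4G01250), a factor of pattern-triggered immunity, fell by 2.05. WRKY23 (AT2G47260), known from auxin transport and root development, rose by 0.96 ± 0.11. ERF and DREB factors had 7 of 83 higher and 21 lower (25.3%, near the background), with a median of -0.62. Of the 83, 13 fell by at least 1, a share above the 9.38% over all loci. With the slide as a block 5 were lower, a share under the 11.3% over all loci. SHN3 (AT5G25390), which promotes cuticle formation, rose by 1.45 ± 0.19. NAC factors had 6 of 66 higher and 19 lower. Their median of -0.31 was -0.04 under quantile normalization. Of 21 Dof factors 10 fell and 1 rose, DOF2 (AT3G21270) reading -1.83 and -1.62 against 0.05 and 0.03. MYB factors were near the background, with 14 of 88 higher (15.9%) and 23 lower (26.1%). With the slide as a block 11 of the 88 were lower, and the family median was -0.04 under quantile normalization. MYB56 (AT5G17800), a regulator of seed size, changed by 1.64 ± 0.28 and MYB48 (AT3G46130) by -2.61 ± 0.48. Homeobox factors had 10 of 73 higher (13.7%) and 17 lower (23.3%), the latter near the background. HB52 (AT5G53980) rose by 2.03 ± 0.29, and AtHB23 (AT1G26960) was at least 4.96-fold lower.

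F-box proteins had 28 of 186 tested members higher and 26 lower, with no stable direction of the median. RING and U-box proteins had 28 of 268 higher and 55 lower, the latter at 20.5% under the background of 22.1%. With the slide as a block 26 of the 268 were lower, a share under the 11.3% over all loci. PUB24 (AT3G11840), a U-box ligase that dampens pattern-triggered immunity, read -6.37 and -5.63 against -2.33 and -3.44 and fell by 3.11 on the log2 scale. HEI10 (AT1G53490), a RING protein of meiotic crossover formation, rose by 1.43 ± 0.21. The F-box gene SDC (AT2G17690), which DNA methylation silences in Arabidopsis, was at least 3.87-fold lower. NPH3 family proteins had 3 of 27 higher and 11 lower: DOT3 (AT5G10250), needed for vein patterning, read -4.05 and -4.38 against -1.04 and -1.07 and fell by 3.16, and NPY4 (AT2G23050) rose by 2.01 ± 0.39. In ankyrin repeat proteins, with 7 of 42 higher and 14 lower, ACD6 (AT4G14400), a regulator of salicylic acid defence, read -3.03 and -1.96 against 0.24 and 0.91 and fell by 3.07. BOP2 (AT2G41370), which shapes the leaf base, fell by 1.69.

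Transposable element genes and genes of unknown function made up the rest. Of 1118 transposable element genes on the array 188 were tested, with 22 higher and 24 lower, shares below the background of 18.6% and 22.1%. Under quantile normalization 30 were higher and 15 lower, and leaving out single arrays moved the lower count from 5 to 68. The neighbours AT3G21050 and AT3G21040 both rose, the former at least 4.92-fold and the latter from -5.79 and -5.56 to -3.89 and -4.21 (1.63 ± 0.17). The elements with the largest falls had only bounds, AT3G43715 being at least 3.43-fold lower and AT4G06491 at least 4.76-fold lower. Unknown proteins had 310 of 2036 members higher and 487 lower, close to the background in both directions, with a median of -0.08 that was 0.02 under quantile normalization. Another neighbouring pair stood out among the falls, AT3G22240, which read -2.25 and -0.27 against 3.45 and 3.81 (-4.89 ± 0.87), and AT3G22235, which moved by -5.18 ± 0.95 with 1 of 2 mutant arrays well above background. The mutant arrays differed by about 2 log2 units in both.

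Families of dim probes depended most on the scaling. In the lowest of 10 classes of signal level the median change of all loci was -0.57, and it was -0.08 under quantile normalization. In the fifth class the medians were 0.10 and 0.11, and in the brightest -0.14 and 0.03. Of the described families 10 changed the sign of their median under quantile normalization. Relative to the median of all loci, 89 kept 1 sign under 5 scalings and 20 did not. Among the latter, 5 had a median above 0.2 in size, namely the pentatricopeptide, thioredoxin, MADS-box, starch enzyme and terpene synthase families.

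**Figure D5:**
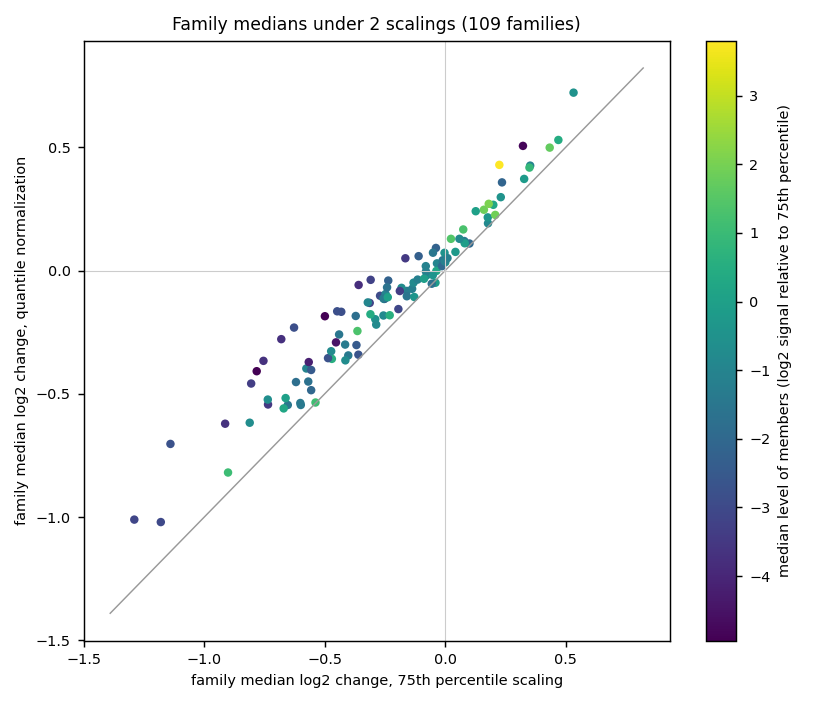
Median log2 change of each of the 109 families under the 75th percentile scaling (horizontal) and under quantile normalization (vertical), coloured by the median level of the members. The grey line marks equal values; nearly all families lie above it, and the dim families (dark) with negative medians lie farthest from it, while 10 families change sign.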

How the data were processed

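Total RNA of 6 leaf samples was hybridized in 1 colour (Cy3), 1 sample per array. Per the submitters' processing notes, the scanner output was extracted with Agilent Feature Extraction 11.5. Their processed signal is a background-subtracted intensity, per the file headers. A deposited table of log2 values per gene, of unstated scaling, served as an alternative. Of 43603 probes, 37257 had 1 locus in the array-element table, 900 several and 5446 none. The brightest probe stood for each locus, since 7098 loci had several, and for 116 of them another probe disagreed in sign. Control spots (1417 of 45220) and outlier spots were left out. Intensities were scaled to the 75th percentile of each array (747 to 1338) and taken to log2. limma 3.58.1 (R 4.3.3) was fitted over all 6 arrays, with Benjamini-Hochberg adjustment over 20272 loci. The number of arrays limits the precision. Where a genotype was not well above background on either array, a bound is given. It is taken against the array's lowest signal called well above background, or the probe's own signal where that was higher.

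Families were assigned from the text of the gene descriptions before the first semicolon. Symbols came from a RefSeq table (8623 tested loci) and other genes are given by locus. Named genes were ORE15 and, per family and direction, up to 3 with the largest change (up to 5 in families of at least 40) that passed without overlap; nitrate transporters, SWEETs, CRKs, aquaporins and FLC relatives beyond that rule were chosen after their values were seen, as were all subgroups. Members and lists were chosen with earlier results of these data known. The fit was tested on simulated data. Sequences of probes and promoters were not analysed here.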

Additional observations from a re-analysis of the deposited data

Results flagged for a closer look

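Probes with no locus in the array table lay outside the families. Of 2853 such probes tested in the same way, 101 were higher in ore15-1D (3.54%) and 257 lower (9.01%). Both shares lay under the 18.6% higher and 22.1% lower over all tested loci, where more were lower than higher as well. The 101 are set apart because they were higher than in Col and entered no family count. They name no gene here.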

How the results depend on the processing

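Of 8244 loci and 3670 family members that passed, quantile normalization, a background model with quantile normalization, the authors' deposited table, averaging of probes, other filters on dim probes, a trend in the spread and the 4 arrays alone kept counts within 1.5 times. The background model with 75th percentile scaling, which also replaced the processed signal by the median spot and background signals, left 0 of either and reduced the ORE15 change to 4.299 (adjusted p = 0.37). There the median of all loci was -0.25, against -0.24 without the filter on dim probes, and 21 of 156 named genes changed sign, at WAKL7 -0.63, SEP3 -0.54, FANCM -0.090, BUB3.2 -0.36, HEI10 -0.56, NPY4 -0.53, AT2G42005 -0.13, AT3G06980 0.22, AT3G21040 -0.84, AT3G21050 -0.67, RPP1 -0.75, PIP2;5 -0.61, TUBG1 -0.37, CRK28 -0.20, APC4 -0.76, YUC1 -0.87, AT4G34800 -0.25, MYB56 -0.43, SHN3 -0.81, HB52 -0.25 and CHR1 -0.18. The cause was not tested. The slide as a block left 3878 loci, of which 3594 were shared in direction, and 1827 members. A minimum change of 1 left 2444 and 1274. Leaving out 1 array left 843 to 8660 loci, 432 to 3870 members and an ORE15 change of 7.495 to 7.603, lowest without ore15-1D replicate 1 for both counts. The replicate block left 6541 loci and 2965 members; replicate numbers did not pair the samples (correlations of deviations of -0.09, -0.01 and 0.13). The higher share of calls was 45.7%, and 56% under quantile normalization, 58% in the authors' table and 33.5% without the filter.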
